A study of Mus musculus with 33 samples.

Results

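The MHC class I presentation genes are described here in mouse macrophages with and without a Cre-driven deletion of Zeb2, which encodes a transcriptional regulator. They are 10 genes, H2-K1, H2-D1, B2m, Tap1, Tap2, Tapbp, Nlrc5, Psmb8, Psmb9 and Psmb10, chosen by symbol from the 24421 genes counted in every sample, and all 10 passed the filter on low counts in every comparison. The data are bulk RNA-seq counts of 33 samples, each from 25000 sorted Kupffer cells (KCs, the resident macrophages of the liver) or alveolar macrophages (AMs, those of the airspaces of the lung). KCs came from Zeb2 fl/fl mice (CRE-, n = 6) or from Clec4f-crexZeb2 fl/fl mice, the latter sorted on the surface receptor Tim4 into CRE+ Tim4+ KCs (n = 6) and CRE+ Tim4- KCs (n = 6). AMs came from Zeb2 fl/fl mice (CRE-, n = 5) or from Itgax-crexZeb2 fl/fl mice, the latter sorted on the integrin CD11b into CRE+ CD11b- AMs (n = 5) and CRE+ CD11b+ AMs (n = 5). By the study's general methods the mice were 6 to 8 weeks old, of both sexes, on a C57Bl/6 background with littermate controls. By the genotypes the study gives, every group carried floxed Zeb2 alleles. The source names call CRE- cells WT and CRE+ cells Zeb2KO. The CRE+ groups have limits as models. The source names of the CRE- samples give no Tim4 or CD11b gate, so Cre and gate cannot be told apart against CRE- cells. Clec4f-cre is driven by a gene of KCs and Itgax-cre by the CD11c gene, which other CD11c+ cells also use, and according to the study some CRE+ cells keep a copy of Zeb2 while deleted cells still make a truncated Zeb2 mRNA.

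MHC class I molecules display peptides from a cell's own proteins to CD8+ T cells and are also read by NK cells. Proteasomes cut the proteins, the TAP transporter carries the peptides into the endoplasmic reticulum, tapasin and its helpers load them onto a heavy chain paired with beta-2-microglobulin, and the loaded complex moves to the surface. Interferon gamma is known to raise most steps together, through IRF1 and the class I transactivator NLRC5, and to exchange constitutive catalytic subunits of the proteasome for those of the immunoproteasome.

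Of the 10 genes, 7 lie on chromosome 17 in the mouse MHC and at its border, within 1.35 Mb from the start of Tapbp to the end of H2-D1 (GRCm38, GENCODE M21). Psmb9, Tap1, Psmb8 and Tap2 form a block of 34.3 kb there. Nlrc5 and Psmb10 lie on chromosome 8 and B2m on chromosome 2. RefSeq promoter windows on GRCm38.p6, from 250 bases before the start to 50 after it, were found for 8 of the 10 genes and not for Tap2 or Nlrc5. The 4 windows below are shown because they belong to both heavy chains, to their light chain and to the start region that Tap1 shares with Psmb9. Each is written 5′ to 3′ on the strand of its gene, with matches to the searched motifs in capitals.
H2-K1, chr17:34000298-34000597, minus strand: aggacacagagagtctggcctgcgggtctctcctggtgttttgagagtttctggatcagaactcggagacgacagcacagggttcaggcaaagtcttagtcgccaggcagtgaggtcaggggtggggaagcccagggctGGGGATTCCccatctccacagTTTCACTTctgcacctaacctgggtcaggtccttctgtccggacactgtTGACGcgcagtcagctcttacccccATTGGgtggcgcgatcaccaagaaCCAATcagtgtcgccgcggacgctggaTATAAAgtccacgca
H2-D1, chr17:35262844-35263143, plus strand: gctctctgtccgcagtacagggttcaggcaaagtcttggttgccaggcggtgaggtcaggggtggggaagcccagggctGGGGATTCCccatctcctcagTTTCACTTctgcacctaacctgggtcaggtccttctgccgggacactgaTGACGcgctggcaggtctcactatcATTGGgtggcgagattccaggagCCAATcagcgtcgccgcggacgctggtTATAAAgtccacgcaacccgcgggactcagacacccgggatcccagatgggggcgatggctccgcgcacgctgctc
B2m, chr2:122147437-122147736, plus strand: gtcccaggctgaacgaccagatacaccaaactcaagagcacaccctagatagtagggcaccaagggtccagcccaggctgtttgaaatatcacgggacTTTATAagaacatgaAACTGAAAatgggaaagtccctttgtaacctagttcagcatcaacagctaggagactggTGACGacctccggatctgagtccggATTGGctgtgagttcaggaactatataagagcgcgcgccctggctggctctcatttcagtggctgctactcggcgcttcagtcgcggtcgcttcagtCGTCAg
Tap1, chr17:34187306-34187605, plus strand: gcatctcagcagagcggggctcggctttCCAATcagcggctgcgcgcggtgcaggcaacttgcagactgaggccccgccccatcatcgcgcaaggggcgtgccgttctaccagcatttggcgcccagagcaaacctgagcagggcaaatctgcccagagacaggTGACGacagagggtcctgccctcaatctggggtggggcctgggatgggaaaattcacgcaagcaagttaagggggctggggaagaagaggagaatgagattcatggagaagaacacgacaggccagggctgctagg

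The capitals mark matches on either strand to GGGNNTTCC, a form of the NF-kB site, to AANNGAAA, an interferon regulatory factor element, to TGACG, the core of the X2 box of the module through which NLRC5 acts, to CCAAT, the core of the Y box, to TATAAA, and to TTCNNNGAA, the interferon gamma-activated sequence. GGGNNTTCC was matched at position -111 of H2-K1 and -171 of H2-D1, counted from the annotated start, and in 1546 of 27025 promoter windows (5.72%). Both heavy chain windows carried the same elements in the same order. With a shift of 60 bases between them, 176 of the 240 compared bases were identical (73.3%), and TATAAA stood at position 36 of H2-K1 and -26 of H2-D1. AANNGAAA was matched in H2-K1, H2-D1 and B2m, and in 24.2% of all windows. TGACG was matched in H2-K1, H2-D1, B2m, Tap1 and Psmb9 (21% of all windows) and CCAAT in those 5 and Tapbp (37.9% of all windows). TATAAA was matched in H2-K1, H2-D1, B2m and Psmb8 (14.2% of all windows), and TTCNNNGAA in Psmb8 alone of the 8 (8.47% of all windows). No motif was matched in Psmb10. Tap1 and Psmb9 are transcribed away from each other from starts 226 bases apart, so their windows share 275 bases, and the TGACG and CCAAT printed for Tap1 are also those counted for Psmb9. These matches describe the letters in a window.

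Each sample had 9837240 to 24332306 reads on genes. CRE+ Tim4- KC replicate 1 was the shallowest, and every other library had at least 17454078. Levels are given as CPM, counts scaled to library size with TMM factors over the 33 samples, and changes as log2 fold changes of edgeR's quasi-likelihood test, a gene being called at an adjusted p under 0.05 over all tested genes. Zeb2 was 229 to 339 CPM in CRE- KCs, 146 to 211 CPM in Tim4+ KCs and 149 to 196 CPM in Tim4- KCs, and 169.5 to 205 CPM in CRE- AMs, 84.7 to 114 CPM in CD11b- AMs and 50.3 to 70.2 CPM in CD11b+ AMs. The defining KC gene Clec4f was at least 2735 CPM in every KC sample and at most 0.390 CPM in any AM sample, and the AM gene Car4 was at least 399 CPM in every AM sample and at most 0.271 CPM in any KC sample. The sorted genes followed their gates, with Timd4 at 278 to 441 CPM in Tim4+ and 0.230 to 8.37 CPM in Tim4- KCs and Itgam at 13.4 to 22.7 CPM in CD11b- and 234 to 279.6 CPM in CD11b+ AMs. The Y-linked Ddx3y was 64.7 to 76.2 CPM in KC replicates 5 and 6 of every group and at most 0.13 CPM in all other samples. By this gene, male cells were seen in those KC samples only and in no AM sample. Comparisons of KCs with AMs were thus not balanced for sex. The labels do not say that replicates came from separate mice, so p-values measure the spread between these samples, which may be partly technical.

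The levels of some of the 10 genes are uncertain because of neighbors or relatives. H2-K1 and H2-D1 resemble each other and other heavy chain genes, and the tally of reads with more than a single alignment was 0 in every file, so how such reads were treated is not known. Among other heavy chain genes, H2-Q6, H2-Q9 and H2-T9 were at 0 CPM in every sample and H2-Q7 was at most 0.184 CPM. Whether the treatment of such reads bears on these levels was not tested. B2m lies within Patl2 on the opposite strand, Tap1 and Psmb9 overlap by 212 bases on opposite strands, and Tapbp shares 3422 bases with Zbtb22 on the same strand. These overlaps are of whole gene spans with introns, and the exonic part was not measured. The strand setting of the counting was not given in the sources used here, so how reads from the overlaps on opposite strands were assigned is not known. For Tapbp and Zbtb22 the strand could not separate reads under any setting.

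Among CRE- cells, the mRNA levels of most of the 10 genes were higher in KCs than in AMs. CRE- KCs exceeded CRE- AMs for 9 of the 10 genes, 5 of them by more than 1 on the log2 scale, and for the same 9 every KC sample was above every AM sample. Of 12145 genes tested, 33.3% were called higher in KCs, 20.9% by more than 1, and 25.4% had KC ranges above AM ranges. The median log2 fold change was 1.04 over the 10 genes and 0.029 over all genes. Organ and cell type cannot be told apart in this comparison, and in bulk samples fewer cells of a type and less RNA per cell cannot be told apart either.

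H2-K1, a classical heavy chain, had a lowest, median and highest level of 1952, 2019 and 2399 CPM in CRE- KCs and was 692, 701, 736, 836 and 848 CPM in the 5 CRE- AM samples, a log2 fold change of 1.46 ± 0.08 (SE, edgeR adjusted p = 6.18e-10). H2-D1, the other classical heavy chain, was 2149, 2413 and 2801 CPM in CRE- KCs and 1261, 1159, 1284, 1294 and 1175 CPM in CRE- AMs, a log2 fold change of 0.98 ± 0.07 (edgeR adjusted p = 1.72e-08). B2m, the invariant light chain, was 3217, 3441 and 3964 CPM against 1679, 1612, 1638, 1763 and 1469 CPM, a log2 fold change of 1.10 ± 0.07 (edgeR adjusted p = 2.03e-09). For all 3 genes the lowest KC sample stood well above the highest AM sample. Per kilobase of transcript, the light chain was the most abundant of the 10 in both tissues, at a level of 4036 ± 309 CPM per kb in CRE- KCs (SD, n = 6) and 1898 ± 125 CPM per kb in CRE- AMs (SD, n = 5). The level of H2-K1 was 1288 ± 106 and 471 ± 46.1 CPM per kb in the same groups.

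The transporter chains differed unequally. Tap1 was 178, 191 and 214 CPM in CRE- KCs and 46.2, 44.5, 42.5, 51.5 and 50.2 CPM in CRE- AMs, a log2 fold change of 2.04 ± 0.08 (edgeR adjusted p = 1.14e-11). Tap2, which forms the transporter with Tap1, was 170.4, 197 and 222 CPM against 114, 130.1, 144, 144 and 138 CPM, a log2 fold change of 0.54 ± 0.08 (edgeR adjusted p = 4.19e-05). Neither chain had overlapping groups, and the distance was much wider for Tap1. Tapbp, which encodes tapasin, was 766, 810.3 and 857 CPM in CRE- KCs and 765, 769.9, 811, 779 and 837 CPM in CRE- AMs. Its groups overlapped over most of their range, and it was the gene of the 10 that did not pass, with a log2 fold change of 0.05 ± 0.05 (edgeR adjusted p = 0.435).

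Nlrc5, the transactivator of the class I genes, differed most of the 10. It was 23.4, 27.9 and 43.0 CPM in CRE- KCs and 2.63, 0.731, 2.06, 0.950 and 1.06 CPM in CRE- AMs, the latter from 15 to 59 reads a sample, a log2 fold change of 4.40 ± 0.32 (edgeR adjusted p = 1.87e-08). The lowest KC level was far above the highest AM level. The immunoproteasome subunits were higher in KCs too. Psmb8 was 382, 395 and 414 CPM in CRE- KCs and 214, 221, 201, 194 and 216 CPM in CRE- AMs, Psmb9 was 153, 168 and 181 CPM against 60.5, 58.1, 50.3, 53.5 and 57.5 CPM, and Psmb10 was 171, 195 and 197 CPM against 149, 148, 122, 127 and 133 CPM. Their log2 fold changes were 0.93 ± 0.06, 1.59 ± 0.07 and 0.48 ± 0.07, and no KC sample overlapped an AM sample for any of the 3.

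**Figure D1:**
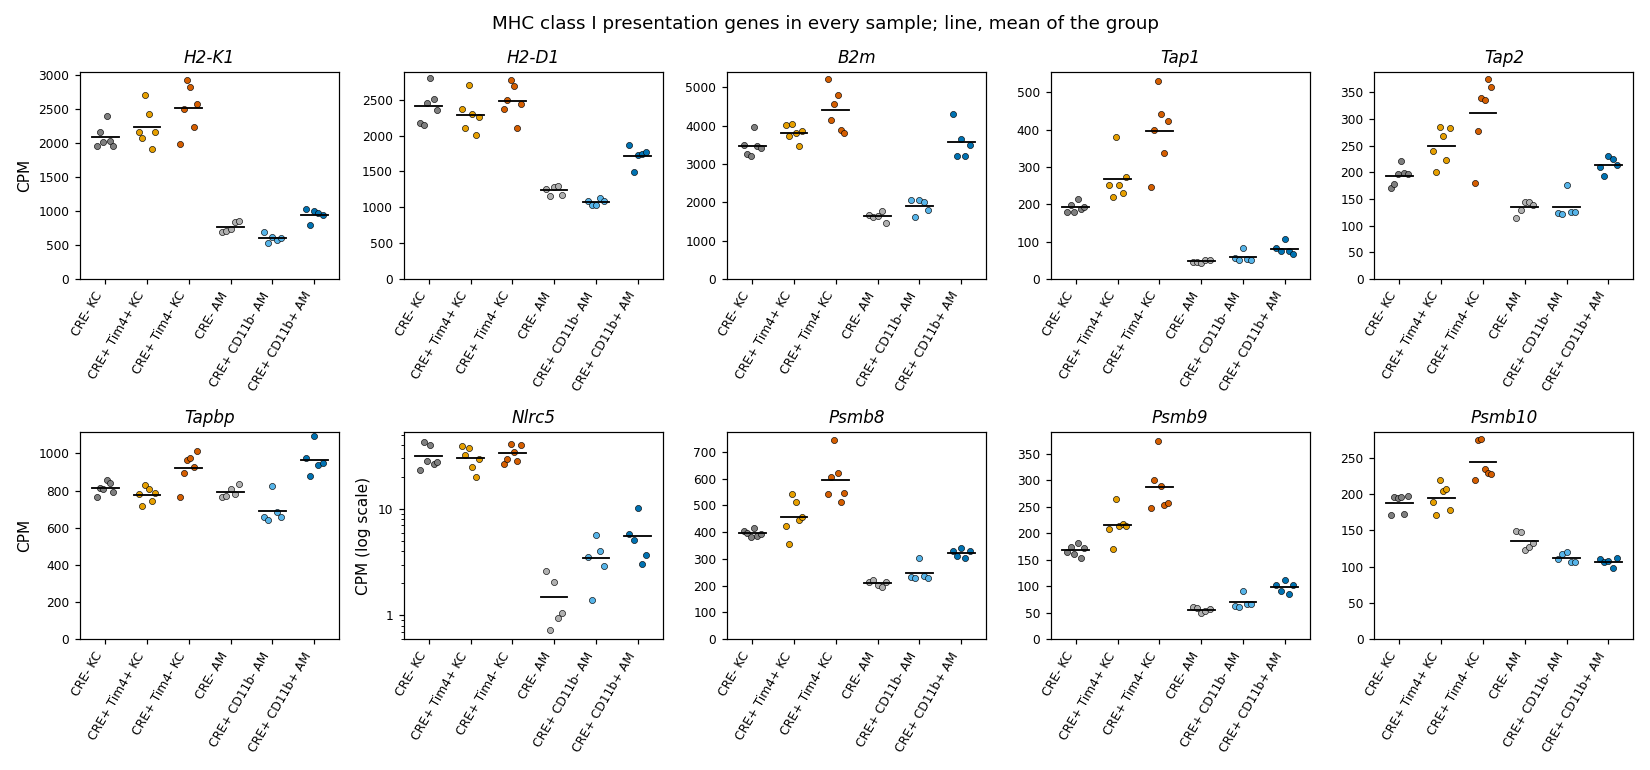
Level of each of the 10 genes in CPM (y axis, linear from 0, except Nlrc5 on a log axis) in every sample of the 6 groups (x axis), each point a sample and each line the group mean. Nlrc5 was at most 10.2 CPM in any AM sample and at least 19.8 CPM in every KC sample, and both CRE+ AM groups lay below CRE- AMs for Psmb10.

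The next comparisons asked how the pathway differed between KCs with and without Cre. In CRE+ Tim4- KCs, 6 of the 10 genes were higher than in CRE- KCs and none was lower, where 12.2% of 12500 tested genes were called higher and 13.2% lower. They were the light chain B2m, both transporter chains and all 3 immunoproteasome subunits. The median log2 fold change was 0.34 over the 10 genes and -0.031 over all genes. Tap1 was the gene that moved by more than 1, as did 8.82% of all genes. Ranges lay above those of CRE- KCs for 4 of the 10 genes (Tap1, Psmb8, Psmb9 and Psmb10) and for 6.0% of all genes.

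Tap1 was 246, 412 and 530.2 CPM (lowest, median and highest) in Tim4- KCs against 178 to 214 CPM in CRE- KCs, a log2 fold change of 1.03 ± 0.15 (edgeR adjusted p = 2.35e-05). Tap2 was 179.7, 337 and 375 CPM against 170.4 to 222 CPM, a log2 fold change of 0.66 ± 0.14 (edgeR adjusted p = 0.00111). Replicate 1, the shallow library, was the lowest Tim4- KC sample for both chains, and for Tap2 it was the one sample within the CRE- KC range. Psmb8 was 513, 576 and 747 CPM against 382 to 414 CPM, Psmb9 was 247, 273 and 374 CPM against 153 to 181 CPM, and Psmb10 was 219, 232 and 276 CPM against 171 to 197 CPM. Their log2 fold changes were 0.57 ± 0.09, 0.75 ± 0.10 and 0.35 ± 0.08 (edgeR adjusted p = 0.00015, 1.36e-05 and 0.00209). B2m was 3812, 4361 and 5214 CPM against 3217 to 3964 CPM with overlap, a log2 fold change of 0.32 ± 0.07 (edgeR adjusted p = 0.00307), and its highest sample was replicate 1, where Tap1 and Tap2 were lowest.

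The heavy chains, tapasin and Nlrc5 did not pass in Tim4- KCs, and all 4 overlapped CRE- KCs. H2-K1 was 1986, 2543 and 2928 CPM, a log2 fold change of 0.25 ± 0.09 (edgeR adjusted p = 0.0562), and H2-D1 was 2109, 2471 and 2782 CPM, a log2 fold change of 0.02 ± 0.08. Tapbp had a log2 fold change of 0.16 ± 0.06 (edgeR adjusted p = 0.0717) and Nlrc5 of 0.06 ± 0.18. H2-K1 and Tapbp lay near the threshold. Without Tim4- KC replicate 1 both passed, with log2 fold changes of 0.31 and 0.21 (edgeR adjusted p = 0.012 and 0.0065), and 8 of the 10 genes were then higher. Among KC replicates 1 to 4 alone, 6 genes were higher, and among replicates 5 and 6, which carried Ddx3y, 4 were. The shares of all genes called higher in these subsets are not given.

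In CRE+ Tim4+ KCs, none of the 10 genes passed against CRE- KCs by edgeR, where 6.09% of all genes did. At an unadjusted p under 0.05 there were 3 (Tap1, Tap2 and Psmb9), DESeq2 called 2 and limma-voom 0. The shares of all genes by these rules are not given here, so these counts have no background beside them. Tap1 was 219.9, 253 and 379 CPM, above CRE- KCs in every sample (3.11% of all genes had ranges above), with a log2 fold change of 0.46 ± 0.14 (edgeR adjusted p = 0.0642). Psmb9 was 169.6, 214 and 264 CPM and overlapped CRE- KCs, with a log2 fold change of 0.34 ± 0.10 (edgeR adjusted p = 0.0504). The other 8 genes had log2 fold changes of -0.09 to 0.35. Without Tim4+ KC replicate 2, Tap1 and Psmb9 passed (edgeR adjusted p = 0.037 and 0.011).

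Tim4- and Tim4+ KCs were also compared directly. Of the 10 genes, 5 were higher in Tim4- KCs (Tap1, Tapbp, Psmb8, Psmb9 and Psmb10) and none lower, where 3.84% of all genes were called higher and 7.62% lower, and the ranges overlapped for all 10. Their log2 fold changes were 0.57 ± 0.14, 0.24 ± 0.06, 0.38 ± 0.09, 0.42 ± 0.10 and 0.32 ± 0.08. The median was 0.28 over the 10 genes and 0.008 over all genes. Among KC replicates 1 to 4, 3 genes passed, the share of all genes not being given. Among replicates 5 and 6, with 2 samples a group, none did by edgeR (5 at an unadjusted p under 0.05, the share of all genes not being given). In the latter the log2 fold changes were 0.60 for Tap1, 0.33 for Tapbp, 0.23 for Psmb8, 0.23 for Psmb9 and 0.24 for Psmb10, those of Psmb8 and Psmb9 being smaller by more than 1.5 times than over all samples. Without Tim4- KC replicate 1, Tap2 also passed at 0.43 (edgeR adjusted p = 0.0052). These 3 KC comparisons share groups with one another, and the fits took all samples as independent.

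Markers of other cells moved with the KC groups. The summed level of 6 monocyte markers was 84.1 to 308 CPM in CRE- KCs, 113 to 367 CPM in Tim4+ KCs and 367 to 876 CPM in Tim4- KCs. In the same order, 7 liver endothelial markers summed to 593 to 1723, 978 to 2836 and 363 to 515 CPM, and 6 hepatocyte markers to 136 to 340.1, 113 to 329 and 72.4 to 175 CPM. The 5 B cell markers summed to 47.5 to 95.6, 103 to 145 and 155 to 286 CPM. Most of this was Ms4a1 in the CRE+ groups (106 to 181 CPM in Tim4- KCs), whose product the study used as a marker of KCs that lost Zeb2. The 5 NK cell markers summed to 2.35 to 5.46, 5.56 to 30.2 and 1.39 to 62.4 CPM. Of the 4 eosinophil markers, Epx was at 0 in all KC samples and Ccr3 was 43.1 to 61.2, 110 to 595 and 144 to 680.3 CPM. Their part in the class I results was not tested.

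In AMs the 10 genes moved most in the CD11b+ group. In CRE+ CD11b+ AMs, 9 of the 10 genes were higher than in CRE- AMs and Psmb10 was lower, where 22.8% of 11573 tested genes were called higher and 20.5% lower. Ranges lay above those of CRE- AMs for 8 genes and below them for Psmb10 (18.6% and 13.9% of all genes). The median log2 fold change was 0.63 over the 10 genes and -0.005 over all genes, and B2m and Nlrc5 moved by more than 1, as did 15.3% of all genes.

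B2m was 4298, 3217, 3639, 3194 and 3504 CPM in the 5 CD11b+ AM samples against 1469 to 1763 CPM in CRE- AMs, a log2 fold change of 1.11 ± 0.08 (edgeR adjusted p = 1.06e-09). Its levels in CD11b+ AMs overlapped those of CRE- KCs (3217 to 3964 CPM). The heavy chains moved less than their light chain. H2-K1 was 1035, 793, 995, 966 and 935 CPM against 692 to 848 CPM, overlapping through replicate 2, a log2 fold change of 0.29 ± 0.08 (edgeR adjusted p = 0.00564). H2-D1 was 1873, 1486, 1733, 1750 and 1771 CPM against 1159 to 1294 CPM without overlap, a log2 fold change of 0.46 ± 0.06 (edgeR adjusted p = 1.79e-06). Both heavy chains stayed below every KC sample.

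Tap1 was 83.1, 75.2, 107, 74.4 and 66.9 CPM in CD11b+ AMs against 42.5 to 51.5 CPM in CRE- AMs, a log2 fold change of 0.77 ± 0.13 (edgeR adjusted p = 9.54e-05). Tap2 was 210.2, 194, 230, 224 and 214 CPM against 114 to 144 CPM, a log2 fold change of 0.66 ± 0.10 (edgeR adjusted p = 1.13e-05). Tapbp was 973, 878, 1092, 938 and 949 CPM against 765 to 837 CPM, a log2 fold change of 0.27 ± 0.07 (edgeR adjusted p = 0.00355). Every CD11b+ sample was above every CRE- AM sample for these 3 loading genes, and Tap2 but not Tap1 reached the range of CRE- KCs.

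Nlrc5 was 5.85, 5.08, 10.2, 3.06 and 3.71 CPM in CD11b+ AMs, each above the highest CRE- AM sample at 2.63 CPM, a log2 fold change of 1.88 ± 0.43 (edgeR adjusted p = 0.00132). It stayed below the lowest KC sample of any group. Psmb8 was 328, 310.1, 341, 305 and 328 CPM against 194 to 221 CPM and Psmb9 was 102, 90.4, 113, 86.2 and 102 CPM against 50.3 to 60.5 CPM, both without overlap, with log2 fold changes of 0.61 ± 0.07 and 0.80 ± 0.11 (edgeR adjusted p = 1.44e-06 and 3.47e-06). The remaining immunoproteasome subunit went the other way. Psmb10 was 110.4, 106, 107, 98.2 and 112 CPM against 149, 148, 122, 127 and 133 CPM, a log2 fold change of -0.36 ± 0.07 (edgeR adjusted p = 0.000225), with every CD11b+ sample below every CRE- AM sample.

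In CRE+ CD11b- AMs the 10 genes divided. Nlrc5, Psmb8 and Psmb9 were higher than in CRE- AMs and H2-K1, H2-D1, Tapbp and Psmb10 were lower, where 13.3% of all genes were called higher and 12.4% lower. The median log2 fold change was 0.10 over the 10 genes and 0.003 over all genes. H2-K1 was 684, 529.5, 618, 573 and 608 CPM, a log2 fold change of -0.35 ± 0.08 (edgeR adjusted p = 0.00302). H2-D1 was 1093, 1025, 1032, 1135 and 1093 CPM, a log2 fold change of -0.21 ± 0.06 (edgeR adjusted p = 0.0124). Psmb10 was 111, 117, 120, 106 and 106 CPM, a log2 fold change of -0.28 ± 0.07 (edgeR adjusted p = 0.00443). Every sample of these 3 genes was below every CRE- AM sample, as for 8.29% of all genes. Tapbp was 656, 644, 824, 683 and 657 CPM, 4 samples below CRE- AMs and replicate 3 within their range, a log2 fold change of -0.20 ± 0.07 (edgeR adjusted p = 0.037).

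The calls in CD11b- AMs rested on single libraries more than the others did. Psmb8 was 234, 229, 305, 236 and 230.5 CPM, above CRE- AMs in every sample (9.77% of all genes had ranges above), and Psmb9 was 62.2, 60.3, 91.3, 67.3 and 65.7 CPM with slight overlap, replicate 3 being the highest of both. Their log2 fold changes were 0.23 ± 0.07 and 0.30 ± 0.11 (edgeR adjusted p = 0.0283 and 0.0412), and without replicate 3 they were 0.14 and 0.18 (edgeR adjusted p = 0.085 and 0.14). Nlrc5 was 3.55, 1.39, 5.64, 3.98 and 2.91 CPM, from 34 to 121 reads, a log2 fold change of 1.21 ± 0.43 (edgeR adjusted p = 0.0423) that was 0.97 (edgeR adjusted p = 0.13) without replicate 3. In place of 7 genes, 4 passed without CD11b- AM replicate 3, 4 or 5 or without CRE- AM replicate 3 or 5, and 3 passed without CRE- AM replicate 4. B2m, Tap1 and Tap2 did not pass, with log2 fold changes of 0.21 ± 0.08, 0.30 ± 0.13 and -0.01 ± 0.10.

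Between the CRE+ AM groups, 8 genes were higher in CD11b+ than in CD11b- AMs and none was lower, where 19.8% of all genes were called higher and 16.6% lower, and 5 had ranges above (15.1% of all genes). The log2 fold changes were 0.64 ± 0.08 for H2-K1, 0.67 ± 0.06 for H2-D1 and 0.90 ± 0.08 for B2m. Both transporter chains, tapasin, Psmb8 and Psmb9 differed by 0.38 to 0.67. Psmb10 differed by -0.08 ± 0.07 (edgeR adjusted p = 0.398) and Nlrc5 by 0.67 ± 0.41 (edgeR adjusted p = 0.222). H2-K1, H2-D1 and Tapbp were thus below CRE- AMs in the CD11b- group and above them in the CD11b+ group. The Tapbp call in CD11b- AMs was lost in 8 of the 10 fits that left out a sample, all but those without CD11b- AM replicate 3 or CRE- AM replicate 1 (edgeR adjusted p = 0.051 to 0.089), with no filter on low counts (0.051) and with all 33 samples in 1 fit (0.053), and that of H2-D1 in the last (0.082). The 3 AM comparisons share groups with one another, and the fits took all samples as independent.

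**Figure D2:**
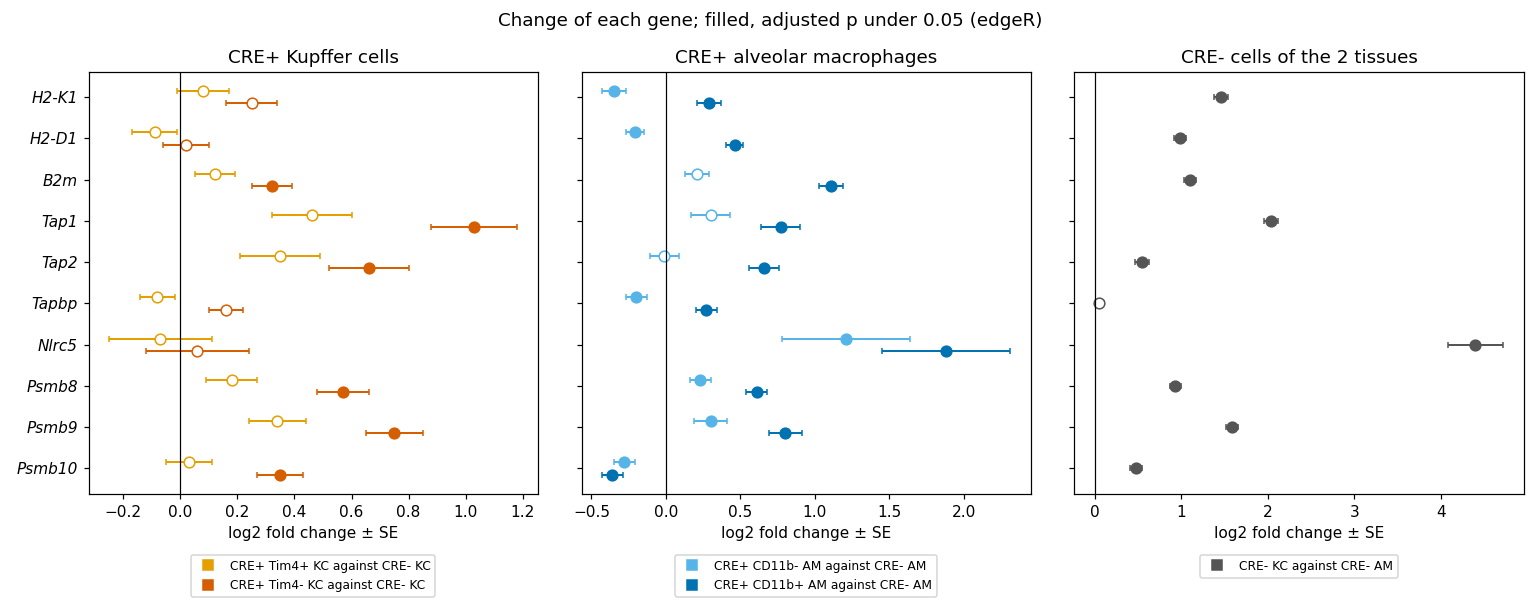
Log2 fold change with its standard error (± SE of edgeR's quasi-likelihood fit) for each of the 10 genes, in panels for CRE+ against CRE- KCs, CRE+ against CRE- AMs, and CRE- KCs against CRE- AMs. Filled points passed at an adjusted p under 0.05: Tap1 was furthest from 0 in Tim4- KCs at 1.03, Nlrc5 in CD11b+ AMs at 1.88 and between the tissues at 4.40, and Psmb10 was below 0 in both CRE+ AM groups.

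Markers of other cells moved in AMs as well. The summed level of 7 neutrophil markers was 91.2 to 116 CPM in CRE- AMs, 1025 to 2641 CPM in CD11b- AMs and 8309 to 10740 CPM in CD11b+ AMs. All 7 were higher in every CD11b+ than in every CRE- AM sample. S100a8 was 2.78 to 6.04 CPM in CRE- AMs and 4067 to 5235 CPM in CD11b+ AMs, S100a9 was at most 0.244 CPM and 3198 to 4254 CPM, Cxcr2 was 2.05 to 4.90 and 498 to 641 CPM, and Retnlg was at most 0.229 CPM and 1.58 to 4.69 CPM. Across CRE-, CD11b- and CD11b+ AMs, 8 lung epithelial markers summed to 115 to 153, 504 to 600.4 and 1319 to 1697 CPM, of which the surfactant gene Sftpc was 11.5 to 19.3, 14.6 to 23.8 and 17.5 to 30.7 CPM. Epcam was 11.3 to 21.01 CPM in CRE- AMs and 477 to 542 CPM in CD11b+ AMs and Krt8 was at most 0.380 CPM and 395 to 755 CPM. The study used Epcam as a marker of AMs that lost Zeb2. The 6 monocyte markers summed to 5.97 to 10.9, 12.5 to 25.3 and 90.2 to 293 CPM. The 5 B cell markers summed to 7.64 to 12.8, 15.1 to 44.1 and 61.0 to 87.6 CPM, with Pax5 at 0 in all AM samples. Their part in the class I results was not tested.

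The change with Cre was then compared between the tissues, as the mean of both CRE+ groups less CRE- in KCs minus the same in AMs, in a fit of all 33 samples. It differed for 3 of the 10 genes, where 19.5% of 13294 tested genes differed. Psmb10 differed by 0.52 ± 0.09 (edgeR adjusted p = 4.44e-05), with log2 fold changes of 0.03 and 0.35 in the CRE+ KC groups and -0.28 and -0.36 in the CRE+ AM groups. B2m differed by -0.44 ± 0.10 (edgeR adjusted p = 0.00171) and Nlrc5 by -1.54 ± 0.38 (edgeR adjusted p = 0.00325), both with the larger increase in AMs. Limma-voom did not call Nlrc5 (adjusted p = 0.055). The other 7 genes differed by -0.16 to 0.22. The tissues also differ in Cre driver and sort gate, which cannot be told apart from tissue in this difference. The mean weighs both gates equally, whatever their share of the cells.

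Each immunoproteasome subunit takes the place of a constitutive subunit, Psmb8 of Psmb5, Psmb9 of Psmb6 and Psmb10 of Psmb7, and the ratio of their counts within a sample does not depend on library scaling. Ratios were compared by two-sided exact permutation tests of the log2 ratio, 21 in all over 7 comparisons with Benjamini-Hochberg adjustment, and 0.0167 was the smallest adjusted p reached. In CRE- KCs the ratio of Psmb8 to Psmb5 counts was 3.01, 3.54 and 4.07 (lowest, median and highest) and in the CRE- AM samples it was 1.16, 1.12, 1.10, 1.26 and 1.16. The ratio of Psmb9 to Psmb6 was 1.10, 1.24 and 1.44 in CRE- KCs and 0.309 to 0.372 in CRE- AMs, and that of Psmb10 to Psmb7 was 2.35, 2.96 and 3.23 against 1.62 to 1.89. KCs were above AMs in every sample for all 3 pairs, by 1.60, 1.89 and 0.77 on the log2 scale (exact permutation test, adjusted p = 0.0167 for each). The constitutive subunits were themselves lower in CRE- KCs, with log2 fold changes of -0.66 ± 0.09 for Psmb5, -0.29 ± 0.07 for Psmb6 and -0.28 ± 0.08 for Psmb7. Per kilobase of transcript, the median CRE- KC sample held 1.95 times as much Psmb8 as Psmb5 and the median CRE- AM sample 0.638 times as much.

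In Tim4- KCs the Psmb8 to Psmb5 ratio was 3.59, 4.30 and 4.85 and the Psmb9 to Psmb6 ratio was 1.34, 1.86 and 2.18. They exceeded CRE- KCs by 0.29 and 0.52 on the log2 scale (exact permutation test, adjusted p = 0.0289 and 0.0167), with overlap, while the Psmb10 to Psmb7 ratio differed by 0.15 (exact permutation test, adjusted p = 0.268). Psmb5 was itself called higher in Tim4- KCs, at 0.26 ± 0.09 (edgeR adjusted p = 0.0357). In Tim4+ KCs the Psmb9 to Psmb6 ratio was 1.41, 1.52 and 1.70 and exceeded CRE- KCs by 0.28 (exact permutation test, adjusted p = 0.0167), and the other ratios did not pass. No ratio passed between Tim4- and Tim4+ KCs, at differences of 0.17, 0.24 and 0.19 (exact permutation test, adjusted p = 0.119, 0.0944 and 0.1). Without Tim4- KC replicate 1, all 3 ratios passed there.

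In CD11b+ AMs the Psmb8 to Psmb5 ratio was 1.51, 1.5, 1.64, 1.47 and 1.48 and the Psmb9 to Psmb6 ratio was 0.440, 0.488, 0.592, 0.471 and 0.526. Both were above every CRE- AM sample, by 0.39 and 0.57 on the log2 scale, and the Psmb10 to Psmb7 ratio, at 1.15 to 1.49, was below every CRE- AM sample, with a difference of -0.36 (exact permutation test, adjusted p = 0.0167 for each). In CD11b- AMs the Psmb10 to Psmb7 ratio was 1.07, 1.31, 1.24, 1.16 and 1.08. It was below every CRE- AM sample, with a difference of -0.54 (exact permutation test, adjusted p = 0.0167), and the other ratios did not pass. Psmb7 was itself called higher in CD11b- AMs, at 0.26 ± 0.08 (edgeR adjusted p = 0.0142). Between the CRE+ AM groups the first 2 ratios were higher in CD11b+ AMs by 0.42 and 0.46 (exact permutation test, adjusted p = 0.0167 and 0.0417), and leaving out any sample but CRE+ CD11b- AM replicate 3 left 1 that passed.

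**Figure D3:**
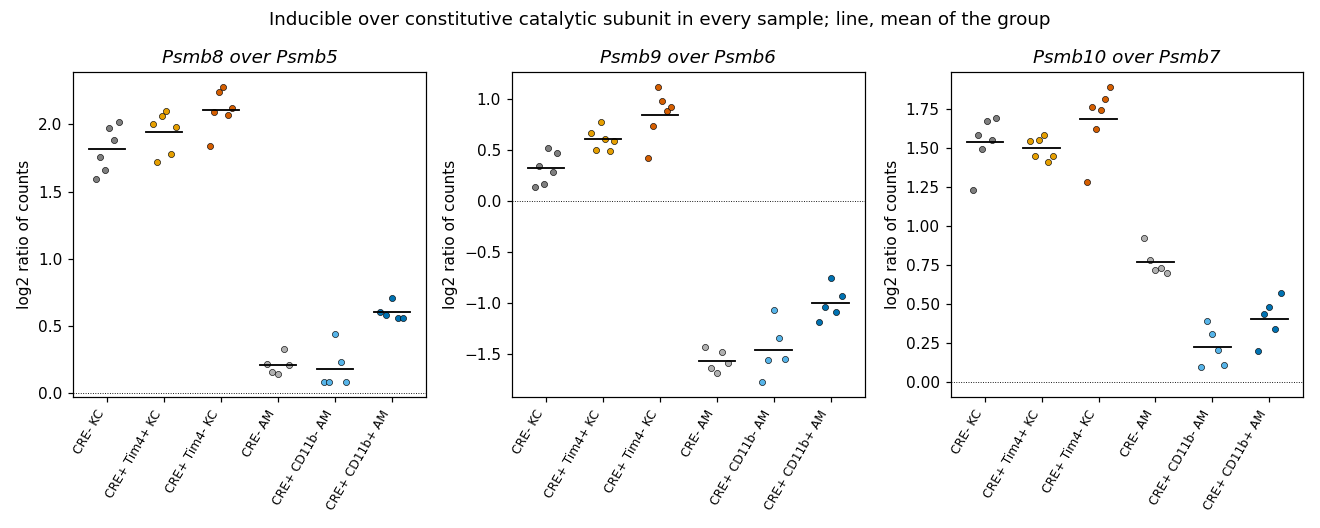
Log2 ratio of the counts of each immunoproteasome subunit to those of the constitutive subunit it replaces (y axis) in every sample of the 6 groups (x axis), each point a sample and each line the group mean. CRE- KCs lay above CRE- AMs for all 3 pairs, and in CD11b+ AMs the Psmb8 and Psmb9 ratios were above and the Psmb10 ratio below CRE- AMs.

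The other genes of the pathway were taken as 4 lists. Of 22 other class I heavy chain genes, 10 were tested between CRE- KCs and CRE- AMs and 9 were higher in KCs, with a median log2 fold change of 2.02. H2-Q10 and H2-T10, at most 0.253 and 0.457 CPM in CRE- AMs, passed the filter on low counts only through their KC levels. These genes could hardly be called other than higher in KCs, so they add nothing to that count or median. H2-T24, a nonclassical heavy chain, was 27.9 to 38.9 CPM in CRE- KCs and 2.29 to 5.07 CPM in CRE- AMs. H2-Q10, a secreted class I chain made by the liver, was 5.44 to 12.2 CPM in CRE- KCs and at most 0.253 CPM in CRE- AMs, and the hepatocyte markers summed to 136 to 340.1 CPM and at most 0.354 CPM in the same groups. Of 27 regulators and interferon signaling genes, 19 were higher in KCs and 4 lower, with a median of 0.76. Irf1, an interferon-induced activator of the pathway, was 243 to 327 CPM in CRE- KCs and 21.04 to 27.0 CPM in CRE- AMs, a log2 fold change of 3.60 ± 0.11. Stat2 and Ifnar2, parts of type I interferon signaling, differed by 2.60 ± 0.12 and 2.51 ± 0.07, and Ciita, the class II counterpart of Nlrc5, by 3.65 ± 0.38. Of 21 proteasome partners 9 were higher and 9 lower, and of 13 loading and trimming genes 4 were higher and 3 lower, beside 33.3% of all genes higher and 29.9% lower.

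No called gene of the 4 lists differed by more than 1 on the log2 scale in either CRE+ KC group against CRE- KCs. In Tim4- KCs, 12 of 21 proteasome partners were higher than in CRE- KCs and 1 was lower, with a median log2 fold change of 0.25. Psme1 and Psme2, which encode the interferon-inducible proteasome activator and were singled out after their values were seen, had log2 fold changes of 0.50 ± 0.07 and 0.55 ± 0.09. Irf1 overlapped between Tim4- KCs (274 to 355 CPM) and CRE- KCs (243 to 327 CPM). Of 12 tested heavy chains 4 were higher, of 27 regulators 7 were higher and 2 lower, and of 13 loading genes 2 were higher and 1 lower, beside 12.2% of all genes higher and 13.2% lower. In Tim4+ KCs none of the 73 tested genes of the 4 lists passed against CRE- KCs by edgeR, where 6.09% of all genes did. At an unadjusted p under 0.05 there were 12, DESeq2 called 1 and limma-voom 0. The shares of all genes by these other rules are not given here. The medians were 0.16 for heavy chains, 0.00 for loading genes, 0.08 for proteasome partners and -0.04 for regulators.

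In CD11b+ AMs, 6 of 9 tested heavy chains were higher than in CRE- AMs and none lower, with a median of 0.73, and 11 of 27 regulators were higher and 3 lower, beside 22.8% of all genes higher and 20.5% lower. Socs1 and Socs3, feedback inhibitors of cytokine signaling, had log2 fold changes of 2.23 ± 0.42 and 1.45 ± 0.23, and Jak2, a kinase of the interferon gamma receptor, of 1.32 ± 0.11. H2-Q4 and H2-Q5, nonclassical heavy chains, differed by 1.66 ± 0.22 and 1.34 ± 0.29, and Tapbpl, a relative of tapasin, by 1.10 ± 0.13. Irf1 (21.09 to 49.75 CPM) and Psme1 (104.3 to 133.1 CPM) overlapped CRE- AMs (21.04 to 26.96 and 104.3 to 129.6 CPM). The proteasome partners divided the CRE+ AM groups. Of the 21, 13 were higher than in CRE- AMs in the CD11b- group (median 0.20) and 4 in the CD11b+ group (median 0.10), and 8 were lower in CD11b+ than in CD11b- AMs, where 13.3%, 22.8% and 16.6% of all genes were so called. CD11b+ AMs were also above CD11b- AMs by more than 1 for Socs1 (1.87 ± 0.41), H2-Q4 (1.5 ± 0.22), Jak2 (1.08 ± 0.11), Stat2 (1.06 ± 0.13) and H2-Q5 (1.05 ± 0.28). Between the tissues, the change with Cre differed by more than 1 for Ciita (1.57 ± 0.47), Socs1 (-1.47 ± 0.44) and H2-T22 (1.18 ± 0.36).

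Within groups, many of the 10 genes were high or low in the same samples, but not all. The correlation of their deviations from the group mean over the 45 pairs of genes had a median of 0.53 in the 18 KC samples (-0.32 to 0.92, below 0 for 3 pairs, all with B2m) and 0.42 in the 15 AM samples (-0.28 to 0.93, below 0 for 6 pairs, of which H2-K1, H2-D1 and Tap2 with Psmb10 were 3). The pairs share libraries and their scaling. Replicate 3 was the highest sample for 9 of the 10 genes in Tim4+ KCs, 7 in Tim4- KCs, 7 in CD11b- AMs and 6 in CD11b+ AMs, with mean deviations from the group mean of 0.25, 0.24, 0.29 and 0.21 on the log2 scale. In CRE- KCs, replicate 4 was highest for 8 genes, with a mean deviation of 0.17. At the other end, CD11b- AM replicate 2 was lowest for 9 genes and Tim4- KC replicate 1, the shallow library, for 7. In CRE- AMs no sample was highest for more than 4, and replicate 3 was highest for none of the 10 genes and lowest for 3 in each CRE- group.

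**Figure D4:**
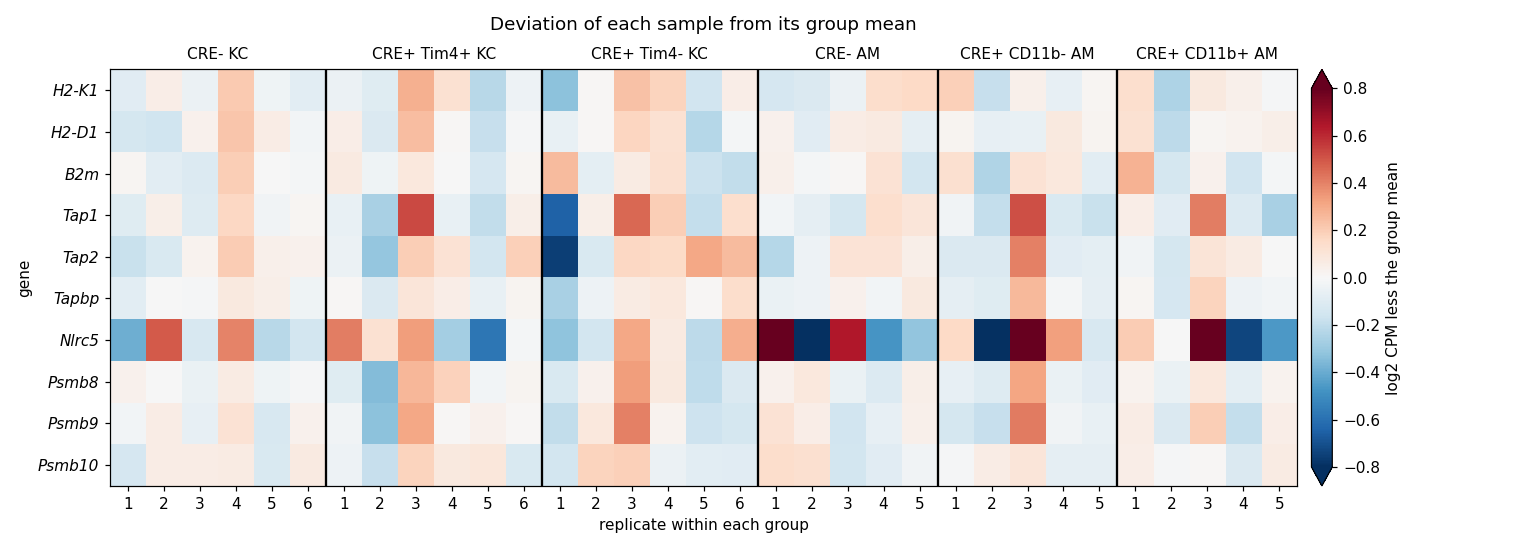
Log2 CPM of each of the 10 genes (y axis) in every sample (x axis, replicates within each group) less the mean of its group, red above it and blue below. Tap1 in replicate 3 was above its group mean in all 4 CRE+ groups, by 0.53 in Tim4+ KCs, 0.46 in Tim4- KCs, 0.52 in CD11b- AMs and 0.41 in CD11b+ AMs.

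The genes whose pattern was most like the mean of the 10, by Pearson r of log2 CPM over the 33 samples, were Zbp1 (r = 0.978), Dtx3l (0.963), Ogfrl1 (0.961), H2-T23 (0.960) and Irf5 (0.960). The samples fall into a KC and an AM cluster, which these values share. With each group's mean taken off, r was 0.71, 0.41, 0.25, 0.81 and 0.45 in the same order. H2-T23, a nonclassical heavy chain, was 609.7 to 700.4 CPM in CRE- KCs, 152 to 175 CPM in CRE- AMs and 198 to 264 CPM in CD11b+ AMs.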

How the data were processed

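Per the labels and the study's methods, RNA of sorted macrophages was sequenced on a NextSeq. The authors trimmed reads with Trimmomatic 0.35, checked them with FastQC 0.11.4, aligned them to mm10 with TopHat2 2.1.0 and SAMtools 0.1.18 and counted them per gene with HTSeq-count, whose version, annotation and strand setting were not given in the sources used here. The deposited values are raw counts per gene. The 5 HTSeq tally rows were left out of library sizes and tests. Unassigned reads made up 5.88% to 10.1% of each sample.

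Counts were TMM-scaled and tested with edgeR 4.0.16 (R 4.3.3, quasi-likelihood, filterByExpr, Benjamini-Hochberg) in the 18 KC, 15 AM, 11 CRE- or all 33 samples. The fits were tested on simulated data. CPM per kb used GENCODE M21 transcript lengths. Immunoproteasome ratios were tested by exact permutation (scipy 1.17.1). Alternatives were RLE factors, DESeq2 1.42.0, limma-voom (limma 3.58.1), other filters, a fold threshold, other sample sets, Ddx3y as a covariate, a replicate block and leaving out each sample. Pathway genes were named by an adjusted p under 0.05 and a change above 1, at most 6 a comparison. Values of some listed genes are not reported here. The 10 genes and all lists were chosen with earlier results of these data known. Intervals and p-values cover only the spread between samples.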

Additional observations from a re-analysis of the deposited data

Results flagged for a closer look

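CRE+ CD11b- AM replicate 3 stood far above the other 4 samples of its group for 5 of the 10 genes. It was 81.7 CPM for Tap1, where the others were 50.1 to 56.1, 175 CPM for Tap2 (122 to 126), 824 CPM for Tapbp (644 to 683), 305 CPM for Psmb8 (229 to 236) and 91.3 CPM for Psmb9 (60.3 to 67.3). CRE+ CD11b+ AM replicate 3 had a Psmb8 to Psmb5 count ratio of 1.64, where the others were 1.47 to 1.51. In all, 78 groups were examined, and chance alone flags about 1 in 20 groups. The 5 genes share the same sample, so these are not separate observations.

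The change with Cre differed between KCs and AMs by a test of the difference itself for 3 of the 10 genes, where 19.5% of all genes differed. As the change in KCs less that in AMs on the log2 scale, it was -0.44 for B2m, -1.54 for Nlrc5 and 0.52 for Psmb10.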

How the results depend on the processing

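Of 1800 values of single genes under alternatives, 1666 kept their direction and side of the threshold, 38 newly passed, 42 no longer passed and 54 changed sign, none of the last called in either direction. The causes were not tested. The most dependent results were those of CRE+ Tim4+ KCs, where Psmb9 and Tap1 had edgeR adjusted p = 0.050 and 0.064, and of CRE+ CD11b- AMs. Nlrc5 in AMs rested on few reads.

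Against CRE- KCs, Tim4+ KCs had 0 called genes of the 10, and 1 with RLE factors or with Ddx3y as a covariate, 2 with DESeq2, with at least 10 counts in every sample, with the replicate block or with all 33 samples in 1 fit, and 3 with only the groups compared. CD11b- against CRE- AMs went from 7 to 3 with all 33 samples in 1 fit. Tim4- against Tim4+ KCs went from 5 to 3 in KC replicates 1 to 4 and to 0 in replicates 5 and 6. The shares of all genes called under these alternatives are not given beside them. Leaving out 1 sample gave 0 to 2 called genes for Tim4+ against CRE- KCs (2 without Tim4+ KC replicate 2), 6 to 8 for Tim4- against CRE- KCs and 3 to 7 for CD11b- against CRE- AMs. Over all tested genes it gave 598 to 753, 2656 to 3259 and 2518 to 2918 called genes in the same order. It gave 1 to 3 called subunit ratios for Tim4- against CRE- KCs (1 without CRE- KC replicate 1, 2 or 3 or Tim4- KC replicate 3 or 4), 0 to 3 for Tim4- against Tim4+ KCs (3 without Tim4- KC replicate 1) and 1 to 2 for CD11b+ against CD11b- AMs.

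With an absolute log2 fold change above 1 also required, called genes of the 10 numbered 1 for Tim4- against CRE- KCs, 0 for Tim4- against Tim4+ KCs, 1 for CD11b- and 2 for CD11b+ against CRE- AMs, 0 for CD11b+ against CD11b- AMs, 5 for CRE- KCs against CRE- AMs and 1 for the difference between tissues. Called genes over the whole table then went from 761 to 289 for Tim4+ against CRE- KCs, from 3169 to 1103 for Tim4- against CRE- KCs, from 1433 to 681 for Tim4- against Tim4+ KCs, from 2972 to 752 for CD11b- against CRE- AMs, from 5004 to 1765 for CD11b+ against CRE- AMs, from 4215 to 1175 for CD11b+ against CD11b- AMs, from 7680 to 4045 for CRE- KCs against CRE- AMs and from 2597 to 1083 for the difference between tissues. With fewer samples, KC replicates 1 to 4 gave 347 for Tim4+ against CRE- KCs, and replicates 5 and 6 gave 380 for the same, 1191 for Tim4- against CRE- KCs and 232 for Tim4- against Tim4+ KCs.

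Sign changes concerned log2 fold changes near 0. In Tim4- against CRE- KCs, H2-D1 went from 0.02 to -0.12 in KC replicates 5 and 6 and to -0.01 to 0.07 with 1 sample left out, and Nlrc5 from 0.06 to -0.05 in KC replicates 1 to 4 and to -0.01 to 0.17. In Tim4- against Tim4+ KCs, Nlrc5 went from 0.13 to -0.0 in KC replicates 1 to 4. With 1 sample left out, Tim4+ against CRE- KCs gave -0.14 to 0.05 for Nlrc5 and -0.0 to 0.09 for Psmb10, CD11b- against CRE- AMs gave -0.12 to 0.02 for Tap2, and the difference between tissues gave -0.08 to 0.01 for Psmb8, -0.05 to 0.06 for Psmb9 and -0.01 to 0.05 for Tapbp. With RLE factors, DESeq2 or at least 10 counts in every sample, that difference was -0.02 for Psmb9 and -0.01 for Tapbp.

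Samples share replicate numbers across groups. Same-numbered Tim4- and Tim4+ KCs deviated together with r of 0.094 to 0.203, and each Tim4- sample correlated best with the Tim4+ sample of its number, a hint from the data and not from the design. Between CD11b+ and CD11b- AMs r was 0.032 to 0.087, and each CD11b+ sample but replicate 2 correlated best with the CD11b- sample of its number. In the other comparisons r was -0.055 to 0.164. Across genotypes, each CD11b+ sample but replicate 5 also correlated best with the CRE- AM sample of its number. In the rest of these comparisons only some samples did so, or none. The CRE+ and CRE- groups among them differ in genotype and so came from different mice. For CRE- KCs and CRE- AMs the labels do not say. The values of these other comparisons cannot show whether the gates of a tissue share mice. The labels do not tie numbers to mice, so the numbers were not taken as pairs. The direct comparisons of gates may thus ignore a pairing. With the replicate block, called genes of the 10 numbered 2, 7 and 6 in the 3 KC comparisons, 8, 10 and 8 in the 3 AM comparisons, 9 between CRE- KCs and CRE- AMs and 3 for the difference between tissues. The shares of all genes called with the block are not given here, so these counts have no background beside them. Of the 10 genes, H2-K1 passed in Tim4- against CRE- KCs (edgeR adjusted p = 0.017, 0.056 without the block) and B2m in Tim4- against Tim4+ KCs (0.044, 0.080 without it). Called subunit ratios with the replicate block were 0 for Tim4+ and for Tim4- against CRE- KCs, 0 for CD11b- and for CD11b+ against CRE- AMs, 0 for CD11b+ against CD11b- AMs and 0 between CRE- KCs and CRE- AMs. With so few pairs, whose smallest p is 0.03125 or 0.0625, that test cannot pass after adjustment and says nothing about stability.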
